A study of Mus musculus with 8 samples.

Results

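Syk, Fgr, Lyn, Vav1, Rac2, Elmo1, Dock2, Plcg2 and Inpp5d carry the signal that follows when a phagocyte's Fc or engulfment receptor meets its target. These 9 genes were picked by symbol, as parts of this pathway, among the 54146 genes of the count table, and all 9 were among the 17095 genes with enough counts to be tested. They were read in bulk RNA-Seq of macrophages from epididymal white adipose tissue (eWAT), sorted as FCGR4+ or FCGR4- cells from each of 4 mice, which gave 8 libraries in 4 pairs. All mice were obese males of genotype C57Bl6, with no untreated or unrestricted animals among them. Each had eaten a high fat diet freely for 24 weeks and then underwent short-term caloric restriction (stCR), with the food cut by 30%, for 2 weeks. The paper's methods give the diet of this weight model as high in fat with added cholesterol. Both populations came from 1 gate on CD45+ CD11b+ cells that had excluded T cells, B cells, neutrophils and eosinophils by their surface proteins (CD3, B220, Ly6G, SiglecF), so the comparison was between cells of the same animal that did or did not carry FCGR4 on their surface.

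In a phagocyte, Src family kinases such as Fgr and Lyn phosphorylate the ITAM motifs of activating Fc receptors, and Syk docks on these motifs and passes the signal on. Exchange factors, Vav1 downstream of Syk and the Elmo1-Dock complexes downstream of apoptotic cell receptors, then load the small GTPase Rac with GTP, and Rac drives the actin that wraps the particle and helps to assemble the oxidase. Plcg2 turns membrane lipid into second messengers, while Inpp5d, also known as SHIP1, removes the lipid product of PI3K and restrains the pathway. FCGR4 is an activating Fc receptor that signals through the ITAM of Fcer1g. That places the genes of the ITAM branch downstream of the protein used for the sort.

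None of the 9 genes passed the threshold between FCGR4+ and FCGR4- macrophages. The test was a quasi-likelihood fit in edgeR that paired the libraries by mouse, with an adjusted P under 0.1 by the Benjamini-Hochberg method as the threshold, and over all genes it called 217, which is 1.27%. DESeq2 with the same paired model called 5.99% of all genes and likewise 0 of the 9. At an unadjusted P under 0.05 the count was also 0 of the 9 genes, against 1671 of all tested genes. The log2 fold change of FCGR4+ over FCGR4- cells was negative in 8 of the 9 and positive in Lyn, with a median of -0.17 over the 9 genes and -0.0025 over all genes. The 4 FCGR4+ libraries and the 4 FCGR4- libraries overlapped in each of the 9 genes, where 3.91% of all genes had ranges that did not overlap. The direction differed between mice. All 9 were higher in the FCGR4+ library of mouse 1, and all 9 were lower in the FCGR4+ libraries of mouse 3 and mouse 4.

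The 8 libraries held between 35992794 and 66856746 counts each, and a member had from 1497 to 21176 counts in a library, so counting error was small against the spread between mice. Levels are given as CPM, counts scaled to the library's size after TMM normalization. Fcgr4 itself, the gene of the sorted protein, had a CPM of 215, 139, 208 and 236 in the FCGR4+ libraries of mice 1 to 4 and between 48.5 and 82.9 in the FCGR4- libraries, with a log2 fold change of 1.61 (SE 0.173, adjusted P = 0.0162 by edgeR). The macrophage markers Adgre1, Csf1r and Cd68 were well expressed in all 8 libraries, with the lowest CPM of any library at 684 for Adgre1, 873 for Csf1r and 1331 for Cd68. Of 12 macrophage markers 0 passed the threshold, and their summed CPM was 30234 to 55318 in FCGR4+ and 24502 to 48700 in FCGR4- libraries.

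Markers of several other cell types were lower in the FCGR4+ library of every mouse. The 9 tested mast cell and basophil markers summed to a CPM of 14.5 to 30.5 in FCGR4+ and 391 to 2145 in FCGR4- libraries. All 9 were called lower, with Gata2 and Ms4a2 at 0 in FCGR4+ libraries of mice 3 and 4. Mcpt8, the marker of this list that was not tested, was at 0 in all 4 FCGR4+ libraries. Neutrophil markers summed to 120 to 561 in FCGR4+ and 388 to 2485 in FCGR4- libraries, with 6 of 9 tested lower. The highest sum was in the FCGR4- library of mouse 3, where Fgr, Vav1 and Rac2 were at their highest of the 8 libraries and Syk, Dock2 and Inpp5d at their lowest of the FCGR4- libraries. B cell and plasma cell markers summed to 194 to 352 against 454 to 2529 (3 of 7 tested lower), fibroblast markers to 120 to 203 against 259 to 872 (5 of 8 lower), dendritic cell markers to 8.18 to 16.4 against 46.4 to 99.6 (4 of 9 lower), and T and NK cell markers to 3.05 to 10.01 against 18.3 to 61.6 (6 of 10 lower). Adipocyte markers summed to 16.4 to 25.1 against 21.0 to 28.1 (0 of 6 called) and endothelial markers to 11.5 to 18.4 against 12.6 to 28.2 (0 of 5). Nonclassical monocyte markers summed to 91.7 to 242 against 122 to 240, with Cd300e called higher and Pglyrp1 lower of 8 tested. Several of these leukocytes use the same kinases, and the part of these cells in the levels below was not tested. In bulk libraries, fewer cells of a type and less RNA per cell cannot be told apart.

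Syk, the tyrosine kinase that binds phosphorylated ITAMs, lies on chromosome 13 of mm10 from 52583173 to 52648792 (plus strand). In FCGR4+ cells its CPM was 226, 259, 116 and 121 in mice 1 to 4, and in FCGR4- cells it was 220, 232, 164 and 180 in the same order. The FCGR4+ libraries of mice 3 and 4 were the lowest of the 8, and those of mice 1 and 2 were among the highest. Its log2 fold change was -0.22 (SE 0.170, 95% interval -0.62 to 0.18, adjusted P = 0.676 by edgeR).

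Fgr, a Src family kinase of myeloid cells, lies on chromosome 4 from 132974095 to 133001910 (plus strand) and varied most. Its CPM in FCGR4+ cells was 66.0, 144, 76.2 and 73.5 in mice 1 to 4, so the library of mouse 2 stood apart from the other three. In FCGR4- cells it was 44.3, 155, 186 and 126, lowest in mouse 1. Its log2 fold change was -0.40 (SE 0.295, 95% interval -1.10 to 0.29, adjusted P = 0.659 by edgeR), the widest interval of the 9.

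Lyn, the Src family kinase that phosphorylates both activating and inhibitory receptors, lies on chromosome 4 from 3678115 to 3813122 (plus strand). Its CPM in FCGR4+ cells was 302, 233, 212 and 224 in mice 1 to 4, and in FCGR4- cells 183, 177, 239 and 240. The FCGR4- libraries of mice 1 and 2 were the lowest of the 8, and the FCGR4+ library of mouse 1 was the highest. FCGR4+ over FCGR4- cells gave a log2 fold change of 0.21 (SE 0.184, 95% interval -0.22 to 0.64, adjusted P = 0.701 by edgeR). Of Lyn's 50-base sequence words, 18.3% also occur in other genes, and 6.09% of its exon bases are overlapped by Gm26857, so its counts are less certain than those of Syk, Fgr, Vav1 and Plcg2, where both shares were 0.

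Vav1, the exchange factor that Syk activates, lies on chromosome 17 from 57279100 to 57328031 (plus strand). Its CPM in FCGR4+ cells was 149, 179, 113 and 139 in mice 1 to 4 and in FCGR4- cells 122, 159, 179 and 167. The FCGR4+ value was the higher of the pair in mice 1 and 2 and the lower in mice 3 and 4. The log2 fold change was -0.12 (SE 0.186, 95% interval -0.55 to 0.32, adjusted P = 0.837 by edgeR).

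Rac2, the Rac GTPase of blood cells and a part of the active oxidase, lies on chromosome 15 from 78559167 to 78572783 (minus strand). Its CPM in FCGR4+ cells was 232, 298, 241 and 267 in mice 1 to 4 and in FCGR4- cells 218, 305, 378 and 310. The FCGR4+ values lay closer together than the FCGR4- values, and the FCGR4- library of mouse 3 was the highest of all. Over the 4 pairs its log2 fold change was -0.20 (SE 0.159, 95% interval -0.58 to 0.17, adjusted P = 0.678 by edgeR).

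Elmo1, the scaffold that joins Dock proteins to engulfment receptors, lies on chromosome 13 from 20090596 to 20608353 (plus strand). Its CPM was 54.4, 49.2, 38.6 and 40.9 in FCGR4+ cells of mice 1 to 4 and 47.1, 44.1, 48.3 and 54.1 in FCGR4- cells. Mice 1 and 2 had the highest values among FCGR4+ libraries, and mice 3 and 4 had them among FCGR4- libraries. Its log2 fold change was -0.09 (SE 0.159, 95% interval -0.46 to 0.28, adjusted P = 0.854 by edgeR).

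Dock2, the Rac exchange factor of leukocytes that Elmo1 binds, lies on chromosome 11 from 34226815 to 34783892 (minus strand). Its CPM in FCGR4+ cells was 180, 173, 70.4 and 115 in mice 1 to 4, and in FCGR4- cells 147, 151, 125 and 148. The FCGR4- libraries lay close together apart from mouse 3, while the FCGR4+ libraries held both the highest and the lowest of the 8 values. The log2 fold change was -0.17 (SE 0.209, 95% interval -0.66 to 0.32, adjusted P = 0.781 by edgeR).

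Plcg2, the phospholipase that Syk and Btk activate, lies on chromosome 8 from 117498291 to 117635142 (plus strand). Its CPM was 63.6, 81.0, 42.9 and 52.2 in FCGR4+ cells of mice 1 to 4 and 51.2, 90.3, 71.6 and 70.3 in FCGR4- cells. Mouse 2 had the highest value in either population, and mouse 1 was the only animal with a higher FCGR4+ value. FCGR4+ over FCGR4- cells gave a log2 fold change of -0.25 (SE 0.188, 95% interval -0.70 to 0.19, adjusted P = 0.661 by edgeR).

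Inpp5d, the inhibitory lipid phosphatase, lies on chromosome 1 from 87620312 to 87720507 (plus strand). Its CPM in FCGR4+ cells was 169, 177, 88.3 and 103 in mice 1 to 4, and in FCGR4- cells it was 146, 150, 131 and 148. The FCGR4- libraries lay closer together than the FCGR4+ libraries, of which mice 1 and 2 were the highest and mice 3 and 4 the lowest of the 8 values. The log2 fold change was -0.16 (SE 0.188, 95% interval -0.60 to 0.28, adjusted P = 0.777 by edgeR).

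**Figure D1:**
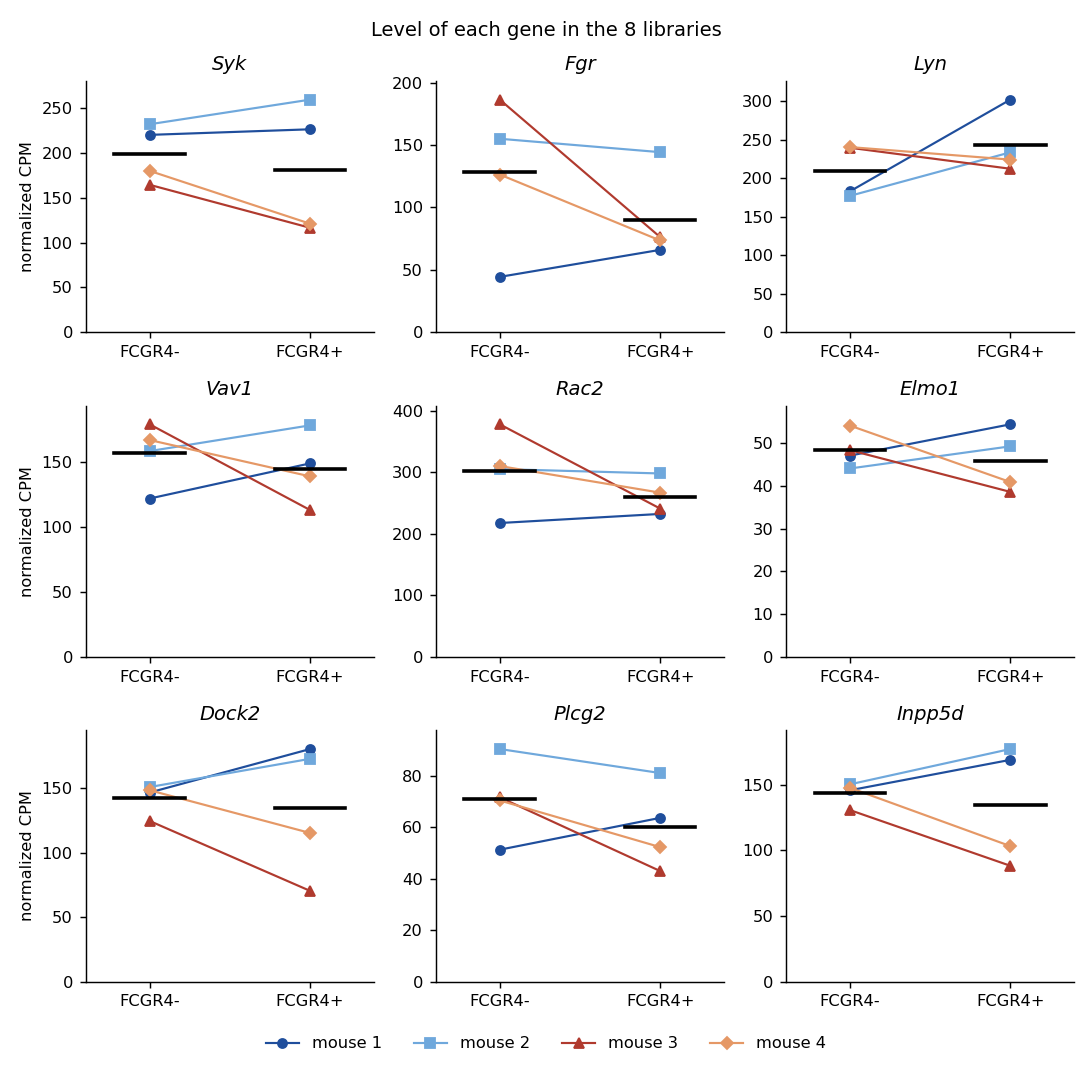
Normalized CPM (vertical axes, from 0) of each gene in FCGR4- and FCGR4+ libraries. Each point is 1 library, lines join the libraries of a mouse, and black bars are means of 4. The lines of mice 3 and 4 run down in all 9 panels, and the line of mouse 1 runs up in all 9.

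The intervals bound how large a difference could be. As a ratio of FCGR4+ to FCGR4- cells, the lower end of the 95% interval was 0.467 for Fgr and between 0.617 for Plcg2 and 0.858 for Lyn in the other 8 genes. The upper ends lay between 1.13 for Rac2 and 1.56 for Lyn. A ratio of 1 was inside each interval, and these data do not show that the populations had equal levels.

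**Figure D2:**
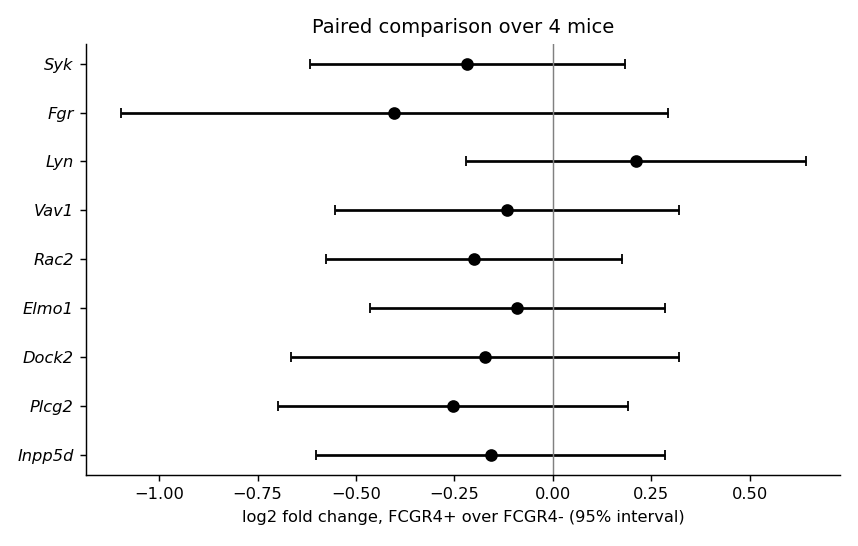
log2 fold change of FCGR4+ over FCGR4- macrophages (horizontal axis) for each gene, with 95% intervals from edgeR's paired fit over 4 mice. Each of the 9 intervals spans 0, and that of Fgr is the widest, from -1.10 to 0.29.

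Levels can be compared between genes only per length, as TPM, which divides the counts by the annotated exon length before scaling to the library. By the mean TPM over the 8 libraries, Rac2 was the highest at 144, followed by Lyn at 88.3, Vav1 at 65.5, Fgr at 45.4, Syk at 32.7, Inpp5d at 29.5, Plcg2 at 24.4, Dock2 at 19.6 and Elmo1 at 5.98. Neighbours in this order had overlapping ranges in both populations with 2 exceptions. Elmo1 lay below Dock2 in both, with 3.68 to 7.27 against 7.40 to 26.6 TPM in FCGR4+ cells and 5.50 to 7.85 against 18.1 to 23.7 in FCGR4- cells. Rac2 lay above Lyn in FCGR4- cells alone, with 114 to 203 against 68.3 to 108 TPM.

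The direction of all 9 genes was the same within mice 1, 3 and 4, while in mouse 2 it was up in 6 and down in 3. The log2 ratio of FCGR4+ to FCGR4- CPM within a mouse had a median over the 9 genes of 0.29, 0.16, -0.65 and -0.40 in mice 1 to 4, while the median over all tested genes was 0.03, 0.00, -0.05 and 0.00. Mice 1 and 2 carry a different animal ID prefix in the labels from mice 3 and 4. The labels do not say what the prefix stands for, so it cannot be told apart from any other difference between these pairs of animals. In all 9 genes both ratios of mice 3 and 4 lay below both ratios of mice 1 and 2, which was true of 25.8% of all genes. In 6 of the 9 (Syk, Lyn, Vav1, Elmo1, Dock2 and Inpp5d) the ratios were above 0 in mice 1 and 2 and below 0 in mice 3 and 4, against 9.92% of all genes.

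Fgr had the widest spread, with log2 ratios of 0.57, -0.10, -1.29 and -0.78 in mice 1 to 4. Dock2 followed with 0.30, 0.20, -0.82 and -0.36. Elmo1 had the narrowest, with 0.21, 0.16, -0.32 and -0.40. Rac2 and Plcg2, like Fgr, had ratios just below 0 in mouse 2 (-0.03 and -0.16), so their direction in that mouse was the same as in mice 3 and 4.

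Whether the population difference itself differed between the prefixes was tested as an interaction, with mouse as a block and 2 mice on each side. The interaction, the log2 fold change in mice 3 and 4 minus that in mice 1 and 2, was negative in all 9 genes and had a median of -0.69, against -0.06 over all genes. It was -1.27 for Fgr (SE 0.313), -0.84 for Dock2 (SE 0.229), -0.77 for Inpp5d (SE 0.182), -0.70 for Lyn (SE 0.206) and -0.69 for Vav1 (SE 0.220). It was -0.66 for Plcg2 (SE 0.249), -0.64 for Syk (SE 0.186), -0.55 for Elmo1 (SE 0.193) and -0.46 for Rac2 (SE 0.225). By edgeR the adjusted P values of the 9 genes were 0.304 to 0.417, and 0 of the 17095 genes (0.0%) passed, although 8 of the 9 and 13.8% of all genes had an unadjusted P under 0.05.

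With DESeq2 the interaction of 6 of the 9 passed. Counts simulated for this design gave 157 DESeq2 interaction calls, 85 of them unchanged genes, where these data gave 977. In the same simulated counts edgeR missed most of the changed genes. The share of unchanged genes depends on how many were made to change, so it cannot be carried over to these data. The adjusted P by DESeq2 was 0.00358 for Fgr, 0.0222 for Inpp5d, 0.0320 for Dock2, 0.0435 for Lyn, 0.0673 for Syk and 0.0777 for Vav1. It was 0.157 for Plcg2, 0.213 for Elmo1 and 0.267 for Rac2. Of the 8809 genes to which DESeq2 gave an adjusted P, 11.1% passed, and 5.43% passed with the lower difference in mice 3 and 4, the direction of the 6 genes. The call of this interaction thus depended on the tool, and neither a call by DESeq2 nor the lack of one by edgeR settles it.

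**Figure D3:**
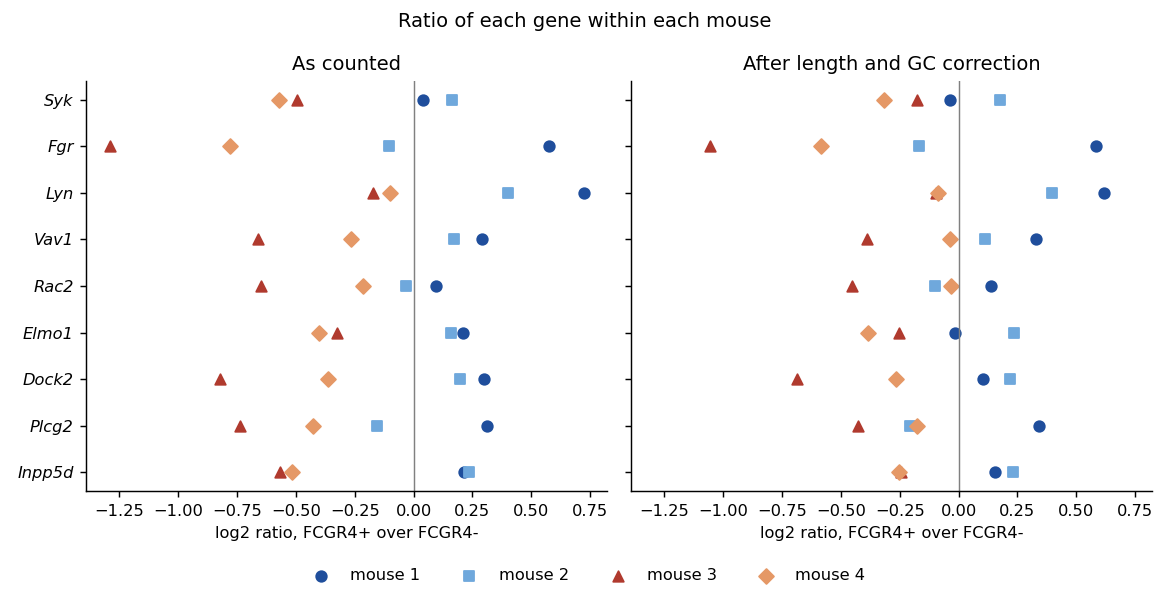
log2 ratio of FCGR4+ to FCGR4- CPM (horizontal axes) of each gene within each mouse, as counted on the left and after a correction for exon length and GC content on the right. On both sides mice 3 and 4 lie below 0 in all 9 genes. On the left both lie below mice 1 and 2 in all 9, and on the right in 7 of 9.

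The libraries also differed in how counts were spread over short and long genes, with mice 3 and 4 opposite to mouse 1 and mouse 2 nearly flat. Tested genes were split into quintiles by exon length. In the quintile with the shortest exons (38 to 1212 bases), the median log2 ratio was -0.13, 0.02, 0.36 and 0.27 in mice 1 to 4. In the quintile with the longest (6496 bases or more) it was 0.17, -0.05, -0.21 and -0.12. None of the 9 genes was in the shortest 2 quintiles, 4 were in the third, 1 in the fourth and 4 in the longest. In GC content, 6 of the 9 were in the fourth quintile, where the medians were -0.05, 0.05, -0.19 and -0.14. The share of counts on mitochondrial genes was 8.31%, 4.35%, 7.87% and 6.67% in FCGR4+ libraries of mice 1 to 4 and 9.88%, 6.43%, 5.21% and 4.13% in FCGR4- libraries, so it was lower in FCGR4+ cells of mice 1 and 2 and higher in those of mice 3 and 4, and its part in the ratios of the 9 genes was not tested. A share of counts on short genes was also taken over the whole count table, with a lower length limit than that of the shortest quintile. It was 16.9%, 13.3%, 22.1% and 19.4% in FCGR4+ libraries of mice 1 to 4 and 20.1%, 16.3%, 16.5% and 14.8% in FCGR4- libraries.

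**Figure D4:**
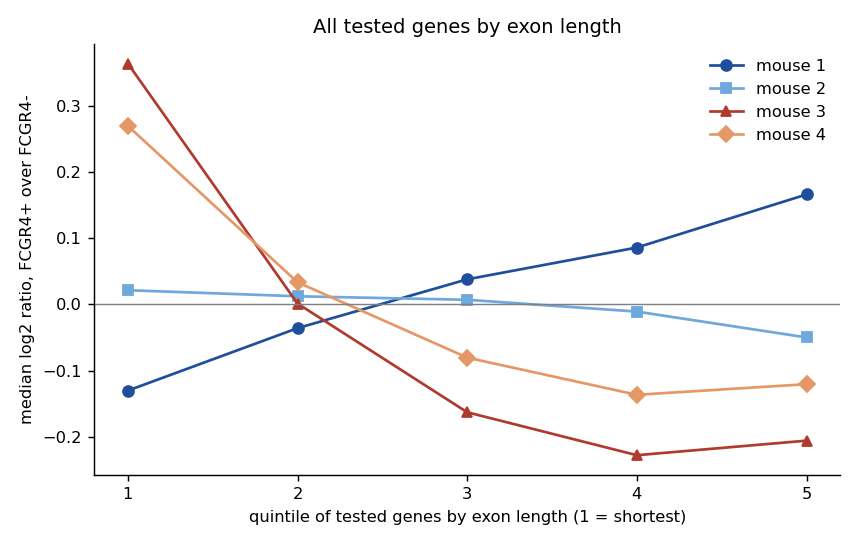
Median log2 ratio of FCGR4+ to FCGR4- CPM (vertical axis) over the genes of each quintile by exon length (horizontal axis, shortest at 1), 1 line per mouse. Mice 3 and 4 go from 0.36 and 0.27 in the shortest quintile to -0.21 and -0.12 in the longest, mouse 1 goes from -0.13 to 0.17, and mouse 2 from 0.02 to -0.05.

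A correction that removed each library's trend along exon length and then GC content was added after these values had been seen. The medians of the 9 genes then were 0.16, 0.18, -0.39 and -0.25 in mice 1 to 4. All 9 still lay below 0 in mice 3 and 4, in 7 both ratios of these mice lay below those of mice 1 and 2 (23.7% of all genes), and in 4 the signs were opposite between the pairs (8.84% of all genes). The median interaction over the 9 genes was -0.43, with 4 of 9 at an unadjusted P under 0.05 by edgeR (10.6% of all genes) and adjusted P values of 0.430 to 0.686. The interaction was thus smaller after the correction in each of the 9 genes, with the most left in Fgr (-1.03), Dock2 (-0.64) and Lyn (-0.60). What set the length trend was not tested.

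The sign of the fitted difference was opposite between the ID prefixes. With mice 1 and 2 alone the log2 fold change was positive in all 9 genes, from 0.03 in Rac2 to 0.56 in Lyn, and with mice 3 and 4 alone it was negative in all 9. In neither pair did any of the 9 pass the threshold in edgeR's fit, where 113 of all genes (0.661%) passed with mice 1 and 2 alone and likewise 113 with mice 3 and 4 alone, the lowest adjusted P of the 9 being 0.120 for Fgr in mice 3 and 4. At an unadjusted P under 0.05 the count was 1 of the 9 with mice 1 and 2 (7.2% of all genes) and 7 of the 9 with mice 3 and 4 (21.9%).

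The marker lists did not all follow this split. The 12 macrophage markers had median log2 ratios of 0.16, 0.41, 0.30 and 0.18 in mice 1 to 4, above 0 in each. Among the 3 defining markers, Csf1r had ratios above 0 in mice 1 and 2 and below 0 in mice 3 and 4, as 6 of the 9 genes did. Mast cell markers were far lower in FCGR4+ cells of each mouse, with medians of -6.00, -5.57, -4.71 and -5.80, and neutrophil markers had medians of -1.55, -2.05, -2.19 and -2.05. The 8 nonclassical monocyte markers differed by mouse, with medians of 1.01, -0.52, -0.90 and -1.11. Their part in the ratios of the 9 genes was not tested.

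Of the other genes of the pathway, 108 in 7 lists were followed, and 106 had enough counts to be tested. The threshold was passed by 1, Lck, which was lower, and by 0 higher, where 1.19% of all genes were called lower and 0.0819% higher by edgeR. The log2 fold changes were 56 positive and 50 negative with a median of 0.01. In the mouse-by-mouse pattern, 28 of the 106 (26.4%) had ratios above 0 in mice 1 and 2 and below 0 in mice 3 and 4, against the 9.92% of all genes given above.

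Among Src and Tec family kinases, 9 of 10 genes were tested and the median was -0.06. Lck, the Src family kinase of T cells and NK cells, had a CPM of 1.45, 2.91, 3.48 and 0.415 in FCGR4+ and 11.02, 13.2, 7.55 and 1.80 in FCGR4- cells of mice 1 to 4. It was lower in FCGR4+ cells of 4 of 4 mice, although the populations overlapped through the low values of mouse 4, with a log2 fold change of -2.08 (SE 0.332, adjusted P = 0.0590 by edgeR). T and NK cell markers moved with it, as given above. Leaving out a mouse changed the fold change little and the call more. Without mouse 1, 2 or 4 the log2 fold change was -1.78, -2.05 and -2.07 and did not pass (adjusted P = 0.166, 0.196 and 0.163 by edgeR), and without mouse 3 it was -2.44 and passed (0.0237). Yes1, the other gene of this list with the lowest P, was scarce, with a log2 fold change of -1.88 (SE 1.05) and a highest CPM of 1.39.

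Among ITAM subunits and their adaptors, which sit just below the receptor, 11 of 15 tested had positive log2 fold changes with a median of 0.12, and 0 passed. Blnk, an adaptor for Syk substrates, had a log2 fold change of 0.38 (SE 0.155, adjusted P = 0.488 by edgeR) and was higher in FCGR4+ cells of 4 of 4 mice. Fcer1g, the ITAM chain of FCGR4, had a CPM of 969, 1117, 1664 and 1466 in FCGR4+ and 840, 1010, 1259 and 1210 in FCGR4- cells of mice 1 to 4. That was higher in 4 of 4 mice, with a log2 fold change of 0.26 (SE 0.122, adjusted P = 0.544 by edgeR). The median ratio of this list was above 0 in every mouse, with 0.15, 0.15, 0.10 and 0.03.

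Among small GTPases and their exchange factors, 22 of 22 were tested, 12 were positive, the median was 0.01, and 0 passed. Dock5 and Dock4, relatives of Dock2, had log2 fold changes of opposite sign, -0.57 (SE 0.242, adjusted P = 0.511 by edgeR) and 0.51 (SE 0.236, adjusted P = 0.533). Both were low, with a CPM of at most 9.77 for Dock5 and 11.98 for Dock4. Among phospholipases, PI3K and PKC genes, 12 of 15 were negative with a median of -0.20, and 0 passed. Pik3cb, a catalytic subunit of PI3K, had -0.43 (SE 0.180, adjusted P = 0.502 by edgeR) and Plcb2, a phospholipase of G protein signaling, -0.44 (SE 0.261, adjusted P = 0.602), and both were lower in 4 of 4 mice.

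Among inhibitory phosphatases and adaptors, 9 of 16 were positive with a median of 0.01, and 0 passed. Inpp4b, a lipid phosphatase that acts after Inpp5d, had -1.09 (SE 0.441, adjusted P = 0.488 by edgeR) at a CPM of at most 2.91, and Ptpn18, a tyrosine phosphatase, 0.43 (SE 0.222, adjusted P = 0.568). Among 24 genes of the actin machinery at the phagocytic cup, 15 were positive with a median of 0.11, and 0 passed. Lsp1, an actin-binding protein of leukocytes, had a CPM of 129, 212, 109 and 106 in FCGR4+ and 154, 280, 273 and 287 in FCGR4- cells. It was lower in 4 of 4 mice, with a log2 fold change of -0.85 (SE 0.237, adjusted P = 0.258 by edgeR), and passed with DESeq2 (adjusted P = 0.00893). By edgeR it also passed with mice 3 and 4 alone, at -1.40 (adjusted P = 0.0860), where Lck did not (adjusted P = 0.173), and with mice 1 and 2 alone it was -0.33 (adjusted P = 0.907). Wipf1, a partner of the actin regulator WASP, had 0.40 (SE 0.144, adjusted P = 0.411 by edgeR), and its populations did not overlap, with 39.5 to 52.5 against 30.0 to 39.1 CPM. Among 5 NADPH oxidase genes 0 passed. Cybb, the catalytic subunit, had 0.25 (SE 0.182, adjusted P = 0.659 by edgeR) and Ncf1, a cytosolic subunit, -0.30 (SE 0.228, adjusted P = 0.669).

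**Figure D5:**
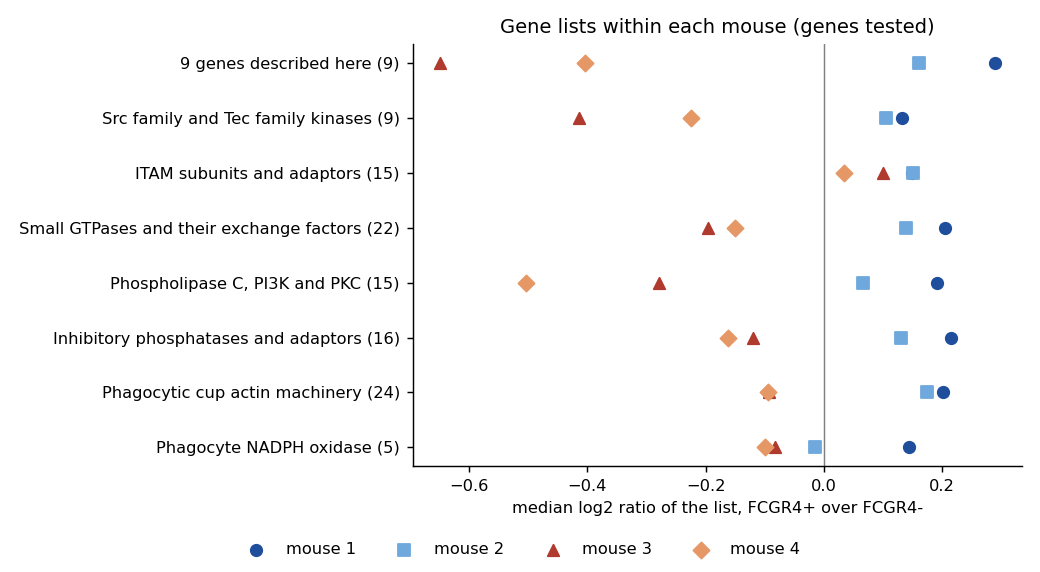
Median log2 ratio of FCGR4+ to FCGR4- CPM (horizontal axis) over the 9 genes and over the tested genes of each pathway list, 1 point per mouse. The number of genes is in brackets. Among the lists drawn, the 9 genes have the lowest median of mouse 3 (-0.65). The medians of ITAM subunits and adaptors lie above 0 in all 4 mice.

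The interaction with the ID prefix was examined in the same lists. By edgeR 0 of the 106 genes passed, with 25 at an unadjusted P under 0.05, against 13.8% of all genes. By DESeq2, with the limit given above for its interaction calls, 16 of the 95 genes with an adjusted P passed, against 11.1% of the 8809 such genes over the whole table, and in all 16 the difference was lower in mice 3 and 4, where 478 of the 977 genes called over the whole table had that direction. These 16, named here after their values were seen, included 4 subunits or adaptors of PI3K: Pik3ap1 with an interaction of -1.12 by DESeq2 (SE 0.263), Pik3cd with -0.85 (SE 0.292), Pik3cg with -0.77 (SE 0.301) and Pik3r5 with -0.69 (SE 0.246). A further 6 belonged to the actin list (Lsp1, Myo1e, Cyfip1, Lcp1, Nckap1l and Myo1f, from -1.05 to -0.59). The remaining 6 were Pag1, Ncf1, Gab2, Fyn, Elmo2 and Ptpn6, with Pag1 at -1.58 and Ptpn6, the phosphatase SHP-1, at -0.62. The difference for Rac1, the Rac GTPase of all cells, did not pass in the comparison of the populations (log2 fold change 0.07, SE 0.137, adjusted P = 0.877 by edgeR).

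How alike the profiles were was measured as the root mean square difference of log2 CPM over the 8 libraries, each gene centred on its own mean. Within the 9 genes the closest pairs were Dock2 and Inpp5d (0.134), Inpp5d and Syk (0.138) and Rac2 and Vav1 (0.145). Fgr was the farthest from the rest, at 0.739 from Dock2 and 0.733 from Syk. Over all tested genes, the nearest to Inpp5d were Emc1 (0.037), Map4 and Pdcd6ip, and the nearest to Syk were Smarcc2 (0.068), Kif13a and Taok2. The nearest to Vav1 were Psmd2 (0.061), Edem1 and Gatad2a, to Dock2 Kat14 (0.081), Upf1 and Wars, and to Elmo1 Phc2 (0.048), Rab11b and Actr1a. The nearest to Lyn were Atf6 (0.095), Smarcc1 and March5, to Rac2 Lrpap1 (0.073), Surf4 and Me2, and to Plcg2 the predicted genes Gm15448 (0.066), Gm7446 and Gm15925. The nearest to Fgr, Pfkl (0.200), Furin and P4ha1, were farther from it than the nearest of the other 8 genes were from theirs. Such a difference grows with a gene's own spread. The root mean square of the centred values was widest in Fgr, at 0.678, and from 0.166 (Elmo1) to 0.409 (Syk) in the other 8. None of these neighbours was in a list of the pathway or of cell markers, and the likeness is a description over 8 libraries that share mice and composition.

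The promoters were read for what the rule did not use. RefSeq (GRCm38.p6) listed a promoter for 7 of the 9 genes (not for Lyn and Rac2), and the 100 bases before the start were searched on both strands for GAGGAA, the core bound by PU.1, the ETS factor of macrophages. Where several promoters are listed, the one nearest the annotated gene start was read. The motif was found in 3 of the 7, against 9.82% of 32851 RefSeq promoters and 9.74% of those of tested genes. The 3 are printed because their genes, the pair with the closest profiles and Vav1, carry it, with the match in capitals. They stand at chr17:57279000-57279099 (plus strand) for Vav1, chr11:34783906-34784005 (minus strand) for Dock2 and chr1:87620212-87620311 (plus strand) for Inpp5d, each 5′ to 3′.
Vav1: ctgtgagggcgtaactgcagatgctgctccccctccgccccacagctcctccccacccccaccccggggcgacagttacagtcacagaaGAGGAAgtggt
Dock2: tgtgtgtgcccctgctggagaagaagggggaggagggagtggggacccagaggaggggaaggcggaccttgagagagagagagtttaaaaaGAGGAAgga
Inpp5d: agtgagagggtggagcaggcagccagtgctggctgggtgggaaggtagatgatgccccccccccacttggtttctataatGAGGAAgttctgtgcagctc
The match began 11 bases before the start in Vav1, 9 in Dock2 and 20 in Inpp5d. A match is a description of the letters, and binding was not measured here. In Syk, 1 of 2 listed promoters held the motif, though not the one read, and the windows of Fgr, Elmo1 and Plcg2 held no match.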

How the data were processed

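Bulk RNA-Seq libraries of FCGR4+ and FCGR4- eWAT macrophages, 1 of each from 4 mice, were assigned to groups by their sample labels. The authors mapped reads to mm10 with STAR and counted read pairs per gene with featureCounts 1.6.3, and the deposited values are these raw counts, with multimapping pairs counted at each place and strand ignored. Every count column was used.

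Genes needed 10 or more counts in 4 of the 8 libraries. They were scaled by TMM factors (0.937 to 1.11) and compared with edgeR 4.0.16 (R 4.3.3) in a quasi-likelihood fit with mouse as a block. DESeq2 1.42.0 was the other tool. Within-mouse ratios used log2 CPM with a prior count of 2. At these depths 3 counts, taken as the floor, are 0.0440 to 0.0883 CPM. These limits cover counting error only. Libraries of the same mouse deviated together from the population means (r from 0.291 to 0.428 across genes, against at most 0.0116 between mice), and the pairing is the mouse number of the labels. No libraries of a population were duplicates (chi-square per degree of freedom of 82.9 or more).

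Named genes were the 9 members, pathway genes past the threshold, the 2 of each pathway list with the lowest P, the 3 nearest profiles of each member, Fcgr4, and the macrophage markers Adgre1, Csf1r and Cd68. Rac1, the other markers named and the genes named for the interaction lie outside this rule and were chosen after their values were seen. The members and lists were chosen with earlier results of these data known. Exon overlap and shared 50-base words were computed from GENCODE vM21 on the same build. Scripts were tested on simulated counts, in which DESeq2 called a larger share of unchanged genes than edgeR in both the paired and the interaction fit.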

Additional observations from a re-analysis of the deposited data

Results flagged for a closer look

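Over 27 groups of 4 values examined (the 2 populations and the within-mouse ratios of each gene), 2 held a library far from the other three by Dixon's test, where chance gives about 1.35. In Fgr the FCGR4+ library of mouse 2 lay above the others by 0.870 of the group's range. In Dock2 the FCGR4- library of mouse 3 lay below the others by 0.838 of the range.

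The population difference in mice 3 and 4 was set against that in mice 1 and 2 for each gene. The log2 interaction passed with DESeq2, as it did in 11.1% of the 8809 genes to which DESeq2 gave an adjusted P, and not with edgeR in Fgr (-1.27), Dock2 (-0.84), Inpp5d (-0.77), Lyn (-0.70), Vav1 (-0.69) and Syk (-0.64). On simulated counts more unchanged than changed genes were among DESeq2's interaction calls, but that share depends on how many genes were made to change. These 6 calls depended on the tool, and neither tool settles them. Elmo1 (-0.55) passed with neither tool and is listed because each ratio was above 0 in the first pair of mice and below 0 in the second, as in 9.92% of all genes.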

How the results depend on the processing

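No member passed the threshold in any setting run, and the lowest adjusted P was 0.120 (edgeR, Fgr, mice 3 and 4 alone). Against 217 genes (14 higher, 203 lower), with the mouse left out of the model (no replicate block) 48 passed (1 and 47), with DESeq2 1024 (192 and 832), with edgeR's newer quasi-likelihood method 629 (57 and 572), with no filter on low counts 1054 (159 and 895), with mice 1 and 2 alone 113 (7 and 106), with mice 3 and 4 alone 113 (29 and 84), and at a threshold of 0.05 76 (2 and 74). By library size alone 8 were higher. Leaving out each mouse gave 84 to 163 genes, 2 to 9 higher and 82 to 154 lower. With mouse 1 left out 84 passed, with mouse 2 left out 127 and with mouse 4 left out 91.

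Of the 106 pathway genes, 0 passed with no replicate block or at 0.05, and 2 (Lck and Lsp1) with DESeq2 or with no filter. Leaving out each mouse gave 0 to 1. The interaction passed in 0 members by edgeR and 6 by DESeq2.

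The sign of the log2 fold change turned in 8 genes with mice 1 and 2 alone: Syk 0.10, Fgr 0.23, Vav1 0.23, Rac2 0.030, Elmo1 0.18, Dock2 0.25, Plcg2 0.077 and Inpp5d 0.23. It also turned in Lyn with mice 3 and 4 alone (-0.16), in Vav1 and Dock2 without mouse 3 and in Elmo1 without mouse 4, and in Vav1 with the replicate block and the length and GC correction (0.0029), which was chosen after seeing the data. Leaving out each mouse gave -0.25 to 0.053 for Vav1, -0.19 to 0.015 for Elmo1 and -0.33 to 0.032 for Dock2, and, with the sign kept, -0.73 to -0.12 for Fgr, -0.44 to -0.10 for Plcg2, -0.35 to -0.098 for Syk, -0.30 to -0.064 for Rac2, -0.30 to -0.033 for Inpp5d and 0.041 to 0.33 for Lyn. With the length and GC correction Syk moved to -0.088, Rac2 to -0.11, Plcg2 to -0.12 and Inpp5d to -0.029. All 9 kept their direction under DESeq2, the newer method, RLE size factors, library size alone, no replicate block, both filters and without mouse 1 or 2. Library size alone moved the median of all genes to -0.09 and no filter to -0.16. The cause of these changes was not tested.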
